A study of Mus musculus with 12 samples.

Results

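The 10 genes followed here belong to the pericentral zonation programme of the liver: Glul, Slc1a2, Rhbg, Oat, Cyp2e1, Cyp1a2, Gulo, Lgr5, Axin2 and Tbx3. They were picked by symbol as genes of the Wnt-dependent central vein programme, and they make up 10 of the 23284 genes in the expression table. The rule itself uses no level or difference, but the members were chosen with earlier results of these data known. Counts of members set beside shares over all tested genes are therefore a description. All 10 passed the filter on low values, at least 1 FPKM in at least 2 libraries, and so belong to the 11546 genes tested. FPKM stands for fragments counted per length of transcript and per depth of library, so levels can be set side by side between genes.

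Bulk RNA-seq had been done on whole liver from 12 mouse samples in 4 groups. Every group lacked mouse apolipoprotein A-I and apolipoprotein E (Apoa1-/- Apoe-/-, called DKO), and DKO/hA1 samples also carried a human APOA1 gene. Chow or a high-fat Western diet had been given for 22 weeks, with 4 DKO samples on chow, 3 DKO samples on Western diet, 2 DKO/hA1 samples on chow and 3 DKO/hA1 samples on Western diet. No group had intact Apoa1 and Apoe, so each comparison is between double knockouts. The promoter that drives the transgene, and the sex and age of the animals, are not given in the sources used here.

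Hepatocytes differ in what they do along the path of the blood from the portal vein to the central vein. Wnt and R-spondin proteins made by the endothelial cells of the central vein keep beta-catenin active in the hepatocytes around it. These pericentral cells take up glutamate and ammonia and make glutamine, and they hold much of the liver's cytochrome P450 capacity, whereas periportal cells hold glutaminase and much of the urea cycle.

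The Apoa1 row lay between 122 and 239.8 FPKM in the 5 DKO/hA1 libraries and between 30.4 and 77.4 FPKM in the 7 DKO libraries, with no overlap between the genotypes. Apoe was listed at 12.9 to 89.8 FPKM over all 12 libraries, and the part of the gene that was deleted is not given in the sources used here. The 10 hepatocyte markers, such as Ttr and Apob, were all above 0 in every group. Several libraries stood apart from others of their group before any comparison. Neutrophil marker transcripts summed to 993 FPKM in DKO Western diet replicate 2 and 899 FPKM in DKO/hA1 Western diet replicate 3, against 12.3 to 225 FPKM in the other 10 libraries. A clock index, the mean log2 level of Arntl, Npas2 and Clock minus that of Dbp, Per2, Per3 and Nr1d2, split the DKO chow group into replicates 1 and 2 at -3.22 and -3.20 and replicates 3 and 4 at 1.33 and 0.86.

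The promoters of 3 members are shown for reference: Glul was the member called by diet, and Cyp2e1 and Cyp1a2 are P450 genes of the same cells. Each run is the 250 bases before the annotated start, 5′ to 3′ on the gene's own strand, from RefSeq on GRCm38.p6, the build that is also called mm10. Capitals mark the TCF/LEF core CTTTGA, through which beta-catenin's partner factors bind, the TATA box TATAAA and the CCAAT box CCAAT, each searched on both strands.
Glul promoter (chr1:153899679-153899928, plus strand): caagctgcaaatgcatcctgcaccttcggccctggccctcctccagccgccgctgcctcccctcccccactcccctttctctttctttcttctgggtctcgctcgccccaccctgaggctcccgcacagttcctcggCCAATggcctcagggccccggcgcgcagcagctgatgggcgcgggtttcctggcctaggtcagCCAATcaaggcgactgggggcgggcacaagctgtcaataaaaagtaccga
Cyp2e1 promoter (chr7:140763569-140763818, plus strand): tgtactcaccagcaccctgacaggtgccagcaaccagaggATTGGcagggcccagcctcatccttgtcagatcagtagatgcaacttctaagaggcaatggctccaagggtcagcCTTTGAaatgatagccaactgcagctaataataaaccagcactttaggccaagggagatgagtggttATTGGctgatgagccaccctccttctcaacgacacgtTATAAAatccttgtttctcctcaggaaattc
Cyp1a2 promoter (chr9:57683656-57683905, minus strand): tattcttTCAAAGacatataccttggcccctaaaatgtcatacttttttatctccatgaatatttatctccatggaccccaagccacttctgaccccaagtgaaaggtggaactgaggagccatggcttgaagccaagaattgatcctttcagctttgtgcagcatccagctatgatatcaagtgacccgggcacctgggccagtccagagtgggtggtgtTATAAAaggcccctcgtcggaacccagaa

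RefSeq's table held a promoter for 6 of the 10 members, Glul, Slc1a2, Oat, Cyp2e1, Cyp1a2 and Axin2. The windows of Slc1a2 (chr2:102706188-102706437) and Axin2 (chr11:108920099-108920348) lie inside the gene spans printed below, so they do not precede the outermost start. The letters CTTTGA or their reverse complement were present in 3 of these 6 windows, those of Slc1a2, Cyp2e1 and Cyp1a2, and in 13.8% of all 32851 windows of the same length. In Cyp2e1 the match began 135 bases before the start, and in Cyp1a2 243 bases before it. TATAAA stood 31 bases before the start of Cyp2e1 and 29 bases before that of Cyp1a2, and 12.4% of all windows held it. The Glul window, at 64.8% G and C, had neither of these motifs and held CCAAT at 113 and 50 bases before its start, a motif found in 33.8% of windows. The aryl hydrocarbon receptor core GCGTG, present in 28.2% of all windows, and the E-box CACGTG bound by clock factors, present in 6.0%, were in 0 of the 6 members' windows. A match describes letters in a window and is not a measured binding site.

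Levels spanned more than 1000-fold between members. Cyp2e1 ranked 18th of the 11546 tested genes by mean FPKM over the 12 libraries, at 3088 FPKM, followed by Oat at 521, Glul at 424, Gulo at 210, Cyp1a2 at 185 and Slc1a2 at 42.5 FPKM. Rhbg averaged 9.48 FPKM and Tbx3 7.63 FPKM, while Axin2 and Lgr5 lay near the filter at 2.00 and 1.96 FPKM. Fragment counts behind these values are not known, so the counting error of the 2 lowest members cannot be given. A change in a bulk library cannot tell fewer pericentral cells from less RNA per cell.

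**Figure D1:**
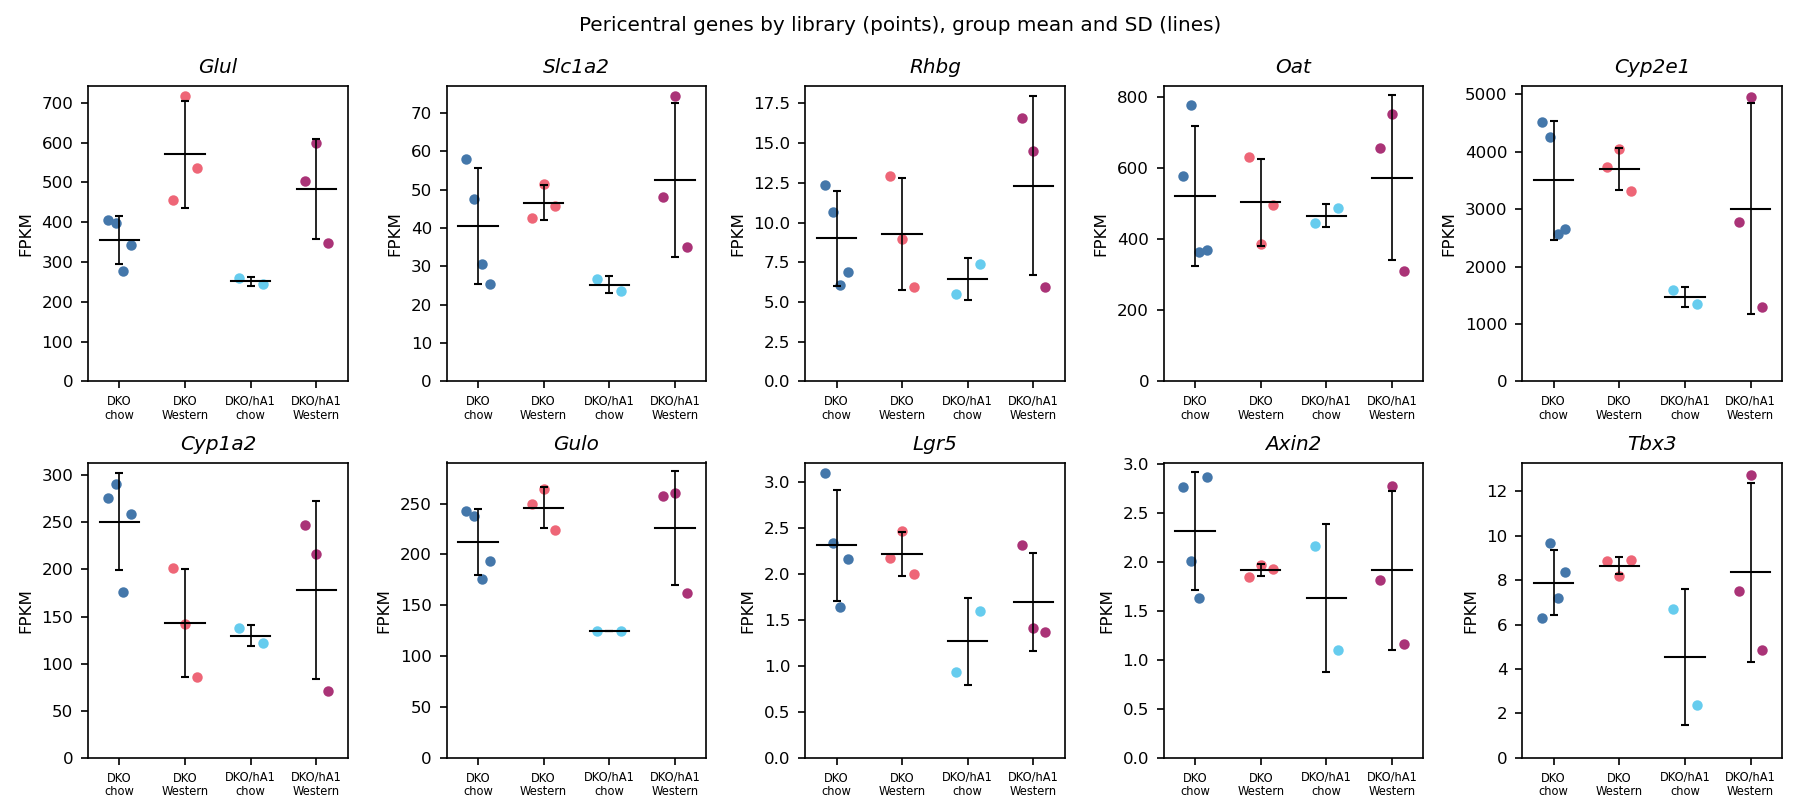
FPKM of each of the 10 members, one panel per gene with its own axis from 0, with a point for each of the 12 libraries and lines for the mean and SD of each group. Glul is higher in all 6 Western diet libraries than in any chow library of the same genotype, while most other members overlap between diets in DKO livers.

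The ammonia and glutamate genes were led by Glul (chr1:153899929-153909723), glutamine synthetase, which joins ammonia to glutamate and is confined to the hepatocytes next to the central vein. In DKO livers on chow it stood at 405, 399, 277 and 342 FPKM in replicates 1 to 4. On Western diet the 3 DKO replicates stood at 456, 718 and 537 FPKM. Every DKO Western diet library was thus above every DKO chow library, as for 10.5% of all tested genes and no other member. In DKO/hA1 livers Glul was at 259.8 and 244 FPKM on chow and at 503, 598 and 349 FPKM on Western diet, again with no overlap. The group means were 356 ± 59.7 (SD, n = 4) and 570.5 ± 134 (n = 3) FPKM for DKO on chow and Western diet, and 252 ± 11.5 (n = 2) and 483 ± 126 (n = 3) FPKM for DKO/hA1. In order, the DKO/hA1 chow group was lowest, then DKO chow, and the 2 Western diet groups, whose libraries overlapped, were highest. DKO/hA1 Western diet libraries also overlapped those of DKO on chow, while the 2 chow groups did not overlap.

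Averaged over both genotypes, the Western diet effect on Glul was 0.75 ± 0.18 (SE) on the log2(FPKM + 1) scale, a 1.68-fold rise with a 95% interval of 0.36 to 1.13 log2 units. It was the 1 member of 10 called in that comparison (limma, Benjamini-Hochberg adjusted p = 0.0397), where 3.95% of all tested genes were called and 2.75% were called as higher. Unadjusted, 3 of the 10 and 19.6% of all tested genes were below 0.05. An exact permutation test that relabelled diet within each genotype gave two-sided p = 0.00857 for Glul, unadjusted, where 0.00286 is the smallest value its 350 relabellings allow. All 10 members were tested this way, with no adjustment over the 10. By the same permutation test Gulo was at p = 0.0543, Slc1a2 at 0.0771 and the rest at 0.294 or above. The limma call lies close to the threshold. Leaving out single libraries gave effects of 0.65 to 0.85 with adjusted p from 0.02 to 0.189, and the call held in 3 of these 12 fits, namely without replicate 2 of DKO on chow, without replicate 1 of DKO on Western diet, and without replicate 3 of DKO/hA1 on Western diet. Without both libraries that are highest in neutrophil markers, an alternative added after the data were seen, the effect was called at adjusted p = 0.0319. Macrophage and Kupffer cell markers, 12 of 13 in the table and none at 0 in a whole group, also separated the diets, summing to 321 to 743 FPKM in DKO chow and 1012 to 1342 FPKM in DKO Western diet livers. In DKO/hA1 livers the sums were 243 to 606 FPKM on chow and 1501 to 2292 FPKM on Western diet. Their part in the Glul result was not tested.

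Slc1a2 (chr2:102658239-102790784) encodes the glutamate transporter GLT-1, which brings glutamate into the pericentral cell. Its DKO chow libraries fell into a high pair, 58.1 and 47.7 FPKM in replicates 1 and 2, and a low pair, 30.7 and 25.4 FPKM in replicates 3 and 4. DKO Western diet libraries lay between these extremes, at 42.6, 51.6 and 45.7 FPKM. DKO/hA1 livers held 26.8 and 23.6 FPKM on chow and 48.1, 74.5 and 35.1 FPKM on Western diet. Diets therefore overlapped without the transgene and did not overlap with it. Rhbg (chr3:88242874-88254739), an ammonia transporter of the Rhesus family, ranged from 6.10 to 12.3 FPKM in DKO chow and from 5.97 to 12.9 FPKM in DKO Western diet libraries. It was at 5.52 and 7.37 FPKM in DKO/hA1 chow livers and at 16.6, 14.5 and 5.94 FPKM on Western diet, so that 1 of the 3 Western diet libraries fell between the chow values. Oat (chr7:132557475-132576398), ornithine aminotransferase, which links ornithine to glutamate, spread from 364 to 776 FPKM within the DKO chow group alone, wider than the range of 386 to 631 FPKM in DKO Western diet livers. In DKO/hA1 livers it was at 444 and 489 FPKM on chow and between 310.4 and 753 FPKM on Western diet.

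Cyp2e1 (chr7:140763819-140774990) oxidises ethanol, acetone and other small molecules and was the most abundant member in every library. DKO chow livers held 4515, 4263, 2565 and 2659 FPKM, and DKO Western diet livers 3737, 4041 and 3311 FPKM. Both DKO/hA1 chow libraries lay below every DKO library, at 1587 and 1351 FPKM. The DKO/hA1 Western diet libraries were the most scattered, at 2779, 4953 and 1297 FPKM, the last of them below both chow values. Cyp1a2 (chr9:57676937-57683655), a P450 that oxidises caffeine and aromatic amines, stood at 276, 291, 176 and 259 FPKM in DKO chow livers. It stood at 201, 142 and 86.0 FPKM in DKO Western diet livers, where 1 library remained above the lowest chow value. DKO/hA1 livers held 137.5 and 121.5 FPKM on chow and 247, 216 and 70.6 FPKM on Western diet, which places 2 Western diet libraries above chow and 1 below.

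Gulo (chr14:65986786-66009254), L-gulonolactone oxidase, carries out the last step of ascorbate synthesis in the mouse. Its levels were 243, 237, 176 and 194 FPKM in DKO chow, and 249.5, 264 and 224 FPKM in DKO Western diet livers, with overlap. Both DKO/hA1 chow libraries held 125 FPKM, and the Western diet libraries of that genotype held 257, 260.3 and 162 FPKM. The chow pair was thus below all other 10 libraries.

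The remaining 3 members are Wnt targets and regulators of low abundance. Lgr5 (chr10:115450314-115587780), the receptor that binds R-spondins, ranged from 1.65 to 3.10 FPKM in DKO chow and from 2.00 to 2.47 FPKM in DKO Western diet livers. It was at 0.93 and 1.60 FPKM in DKO/hA1 chow livers and at 2.31, 1.41 and 1.37 FPKM on Western diet. Axin2 (chr11:108917828-108950783), a feedback inhibitor in the beta-catenin destruction complex, stayed between 1.10 and 2.87 FPKM in all 12 libraries, with every pair of groups overlapping. Tbx3 (chr5:119670534-119684724), a transcription factor of pericentral hepatocytes, ranged from 6.28 to 9.65 FPKM over the 7 DKO libraries. In DKO/hA1 livers it was at 6.68 and 2.36 FPKM on chow and at 7.49, 12.7 and 4.83 FPKM on Western diet.

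In DKO livers the members shared no direction on Western diet. Of the 10, 5 were fitted as higher, beside 48.9% of all tested genes, and 5 as lower, with a median of 0.01 log2 units against a median of -0.00 for all tested genes. None was called at adjusted p below 0.05, in a comparison where 0.113% of tested genes were called. Glul came to 0.60 ± 0.23 (SE; limma adjusted p = 0.342) and Cyp1a2 to -0.93 ± 0.41 (adjusted p = 0.413). These were the 2 members with an unadjusted p below 0.05, a share of 20% against 11.8% of all tested genes. The fitted differences of the other 8 lay between -0.21 and 0.20. Scaling the libraries to equal totals shifted the median of all genes by -0.18, and 1 member, not 5, was then above 0. Higher on Western diet were 8 of 8 tested neutrophil markers, at a median of 2.70. So were 12 of 12 macrophage and Kupffer cell markers, at 0.89. Lower were 9 of 10 endothelial markers, at -0.41, and 7 of 10 hepatocyte markers, at -0.13. In that order, 8, 7, 0 and 0 had an unadjusted limma p below 0.05, beside 11.8% of tested genes. Stellate cell markers were split, 4 of 8 higher. None of these was called, and their part in the members' values was not tested.

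With human APOA1 all 10 members were fitted as higher on Western diet than on chow, beside 48% of all tested genes, and their median was 0.76 log2 units. No member was called, against 1.32% of tested genes, and 3 had an unadjusted limma p below 0.05, against 13.5%. Unadjusted p was below 0.05 for Slc1a2 at 0.96 ± 0.35 (SE; limma adjusted p = 0.242), Glul at 0.89 ± 0.27 (adjusted p = 0.139) and Gulo at 0.81 ± 0.23 (adjusted p = 0.108). In these 3 members all 3 Western diet libraries were above both chow libraries, which 15.6% of all tested genes also showed. Cyp2e1 at 0.82 ± 0.46 and Tbx3 at 0.78 ± 0.37 overlapped between diets, and Cyp1a2 came to 0.26 ± 0.49. Without DKO/hA1 Western diet replicate 3, Gulo was called at 1.03 (adjusted p = 0.0449). Cyp1a2 turned to -0.064 without DKO/hA1 Western diet replicate 1. Without replicate 2 of that group, 8 of the 10 members were above 0 and their median was 0.41. Markers of cell types differed between these diets too. Higher on Western diet were 12 of 12 macrophage and Kupffer cell markers, at a median of 2.03, with 6 called against 1.32% of tested genes. So were 8 of 8 tested neutrophil markers, at 1.68, 9 of 10 endothelial markers, at 0.31, and 8 of 8 stellate cell markers, at 0.28. All 10 hepatocyte markers were lower, at -0.23, with none called. Their part in the members' values was not tested.

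On chow, all 10 members were fitted as lower with human APOA1 than without, beside 50% of tested genes, at a median of -0.59. None was called, and 0.0779% of tested genes were, while 4 had an unadjusted limma p below 0.05, against 7.43% of tested genes. Both DKO/hA1 libraries lay below all 4 DKO libraries for 5 members, Glul, Cyp2e1, Cyp1a2, Gulo and Lgr5, where 9.28% of all tested genes showed the same. Cyp2e1 differed by -1.23 ± 0.44 (SE; limma adjusted p = 0.513), Gulo by -0.78 ± 0.21 (adjusted p = 0.36), Lgr5 by -0.56 ± 0.20 (adjusted p = 0.514) and Tbx3 by -0.81 ± 0.35 (adjusted p = 0.623). Glul differed by -0.51 ± 0.26 (adjusted p = 0.716). Markers of other cell types went both ways. Lower were 9 of 10 endothelial markers, at a median of -0.42, and 11 of 12 macrophage and Kupffer cell markers, at -0.64. So were 5 of 5 tested central vein endothelium markers, at -0.21. Of these 3 lists, 0, 1 and 1 markers had an unadjusted limma p below 0.05. Higher were 8 of 8 tested neutrophil markers, at 0.28, and 6 of 8 stellate cell markers, at 0.26. So were 4 of 5 tested red blood cell markers, at 0.23. Here 0, 3 and 0 had an unadjusted limma p below 0.05. Hepatocyte markers were split, with 4 of 10 higher. None of these markers was called. Their part in the members' values was not tested. This comparison and the diet comparison in DKO/hA1 livers use the same 2 chow libraries, so low values there enter both. Those libraries carry the same number, 57, in the middle of their sample codes, whose meaning is not stated, and DKO chow replicate 3 carries it too. Against that DKO library alone, 7 members were lower in both DKO/hA1 chow libraries, 1 was higher (Oat) and 2 lay between them (Rhbg and Axin2). The share of all tested genes that did so was not computed, so these counts are a description.

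On Western diet the members did not separate by genotype. Differences with against without human APOA1 ran from -0.46 for Cyp2e1 to 0.35 for Rhbg, with 4 above 0, beside 48.1% of tested genes, and a median of -0.06. No member was called and no member's groups were free of overlap, beside 9.54% of all tested genes without overlap. limma called 0 genes here (0% of those tested) and gave 675 an unadjusted p below 0.05 (5.85%), none of them a member. Equal totals shifted the median of all genes by 0.17, and 7 members, not 4, were then above 0. Leaving out DKO/hA1 Western diet replicate 3 put 8 above 0. DKO replicate 1 and DKO/hA1 replicate 1 on this diet share the number 41 in their sample codes, and between these 2 libraries 7 members were higher and 3 lower with human APOA1. The share over all tested genes was not computed for this pair either. Markers of endothelium were fitted as higher with human APOA1 for 9 of 10 and those of macrophages and Kupffer cells for 12 of 12. Their medians were 0.40 and 0.52, and 0 and 1 had an unadjusted limma p below 0.05. Stellate cell markers were higher for 8 of 8, at a median of 0.68. Of these, 6 had an unadjusted limma p below 0.05, beside 5.85% of tested genes. Lower were 8 of 8 tested neutrophil markers, at -1.10, and 8 of 10 hepatocyte markers, at -0.20, with 0 below that level in both. None of these markers was called, and their part in the members' values was not tested.

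The difference between the 2 diet effects, the interaction, was above 0 for all 10 members, beside 50.1% of tested genes, and ranged from 0.26 to 1.19 with a median of 0.69. Leaving out replicate 2 of DKO/hA1 on Western diet gave 0.39. None was called, and 0.0173% of tested genes were. An unadjusted limma p below 0.05 was found for 1 member, Gulo, and for 4.88% of tested genes. Gulo came to 0.66 ± 0.29 (SE; limma adjusted p = 0.961) and Cyp1a2 to 1.19 ± 0.64 (adjusted p = 0.961). A different response of the members to diet with human APOA1 was thus not shown for any of them. The interaction was also above 0 for 9 of 10 endothelial markers, at a median of 0.83. It was above 0 for 12 of 12 macrophage and Kupffer cell markers, at 1.20, and 8 of 8 stellate cell markers, at 0.19. Of these, 0, 4 and 0 had an unadjusted limma p below 0.05. Central vein endothelium markers were above 0 for 5 of 5 tested, at 0.46, with 1 at an unadjusted limma p below 0.05. The interaction was below 0 for 8 of 8 tested neutrophil markers, at -1.39, and 7 of 10 hepatocyte markers, at -0.17. So it was for 4 of 5 tested red blood cell markers, at -0.65. None of these markers was called. Their part in the members' values was not tested. In the average of both diet effects, Slc1a2 at 0.58 ± 0.23 (adjusted p = 0.187) and Gulo at 0.48 ± 0.15 (adjusted p = 0.0961) came after Glul and were not called. Gulo passed the threshold in 2 of 22 alternative settings, at 0.59 (adjusted p = 0.0261) without DKO/hA1 Western diet replicate 3 and at 0.56 (adjusted p = 0.0498) without both libraries highest in neutrophil markers, and its adjusted p reached 0.29 in the others.

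**Figure D2:**
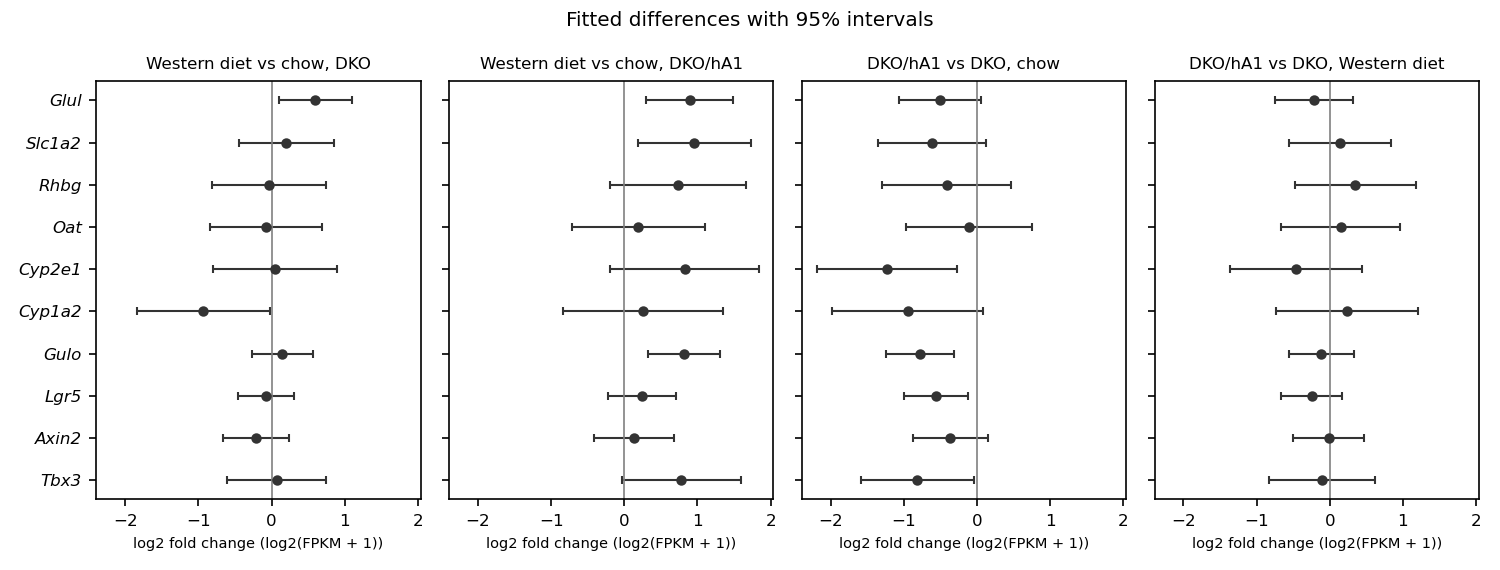
Fitted log2 fold change and 95% interval of each member on the log2(FPKM + 1) scale in the 2 diet comparisons and the 2 genotype comparisons, with a line at 0. All 10 points lie above 0 for diet in DKO/hA1 livers and below 0 for genotype on chow, and most intervals cross 0.

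The members varied widely between libraries of one group, and in DKO chow livers the split followed the clock index. Within groups the SD of log2 level was 0.24 for Lgr5 and up to 0.61 for Cyp1a2, against a median of 0.20 for all tested genes. In DKO chow livers, replicates 1 and 2 had 1.89 times the mean Slc1a2 level of replicates 3 and 4, 1.84 times the Oat level, 1.77 times the Rhbg level and 1.68 times the Cyp2e1 level. For Glul, Cyp1a2 and Gulo the same ratio was 1.3, and for Axin2 and Tbx3 it was 1.06 and 1.02. These are the 2 pairs that the clock index separated. The index was 0.39 and 0.96 in the DKO/hA1 chow libraries, near the low-level DKO pair, and -2.65, -3.16 and -0.93 in DKO/hA1 Western diet replicates 1 to 3. DKO Western diet livers lay between, from -1.86 to -1.18. Time of collection is not given in the sources used here.

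With the index added to the model, its coefficient was negative for all 10 members, beside 48.8% of tested genes. Slc1a2 was called, at -0.24 ± 0.04 log2 units per unit of index (SE; limma adjusted p = 0.0491), where 0.312% of genes were called. That call held in 2 of 12 fits with 1 library left out, whose adjusted p ran from 0.0351 to 0.258. Cyp2e1 had the steepest coefficient, -0.26 ± 0.08 (adjusted p = 0.26). In the same model the diet effect with human APOA1 was above 0 for 6 members, not 10, with a median of 0.06, and the genotype effect on chow was below 0 for 9, with a median of -0.34. The interaction was above 0 for 8, with a median of 0.15. Glul kept an average diet effect of 0.52, no longer called (adjusted p = 0.122), and Cyp1a2 turned to -0.33 for diet with human APOA1. The index runs with the groups in DKO/hA1 livers, so its part in those differences and that of diet cannot be told apart.

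**Figure D3:**
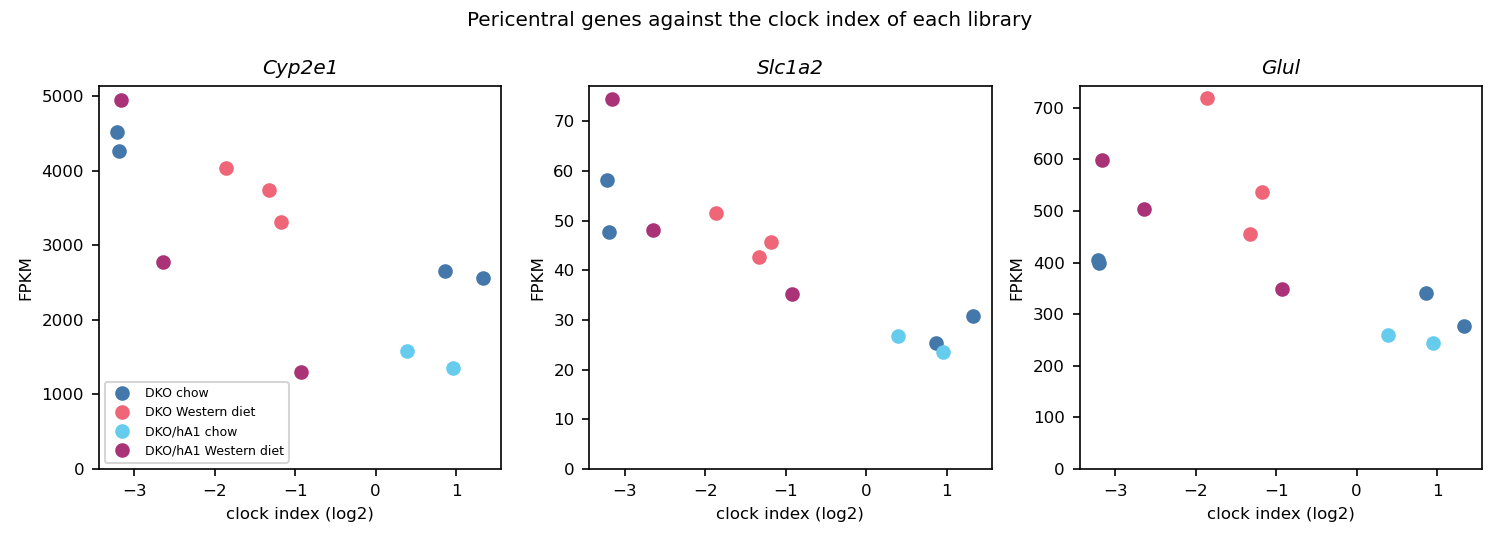
FPKM of Cyp2e1, Slc1a2 and Glul (vertical axes, from 0) against the clock index in log2 units (horizontal axes), with a point for each of the 12 libraries coloured by group. Within DKO chow, the libraries at -3.22 and -3.20 lie above those at 1.33 and 0.86, and both DKO/hA1 chow libraries have an index above 0.

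The ratio of Glul to Cyp1a2, both pericentral, was higher on Western diet. The pair was picked after the values were seen, so its ratio is a description and carries no test. FPKM of Glul over FPKM of Cyp1a2 was 1.47, 1.37, 1.57 and 1.32 in DKO chow livers and 2.27, 5.06 and 6.24 in DKO Western diet livers. In DKO/hA1 livers it was 1.89 and 2.00 on chow and 2.04, 2.76 and 4.94 on Western diet. Every Western diet ratio was above every chow ratio of the same genotype, by a narrow margin in DKO/hA1 livers. Of the 45 ratios between members, 11 separated the diets in DKO and 10 in DKO/hA1 livers. In the same direction in both genotypes, 3 did: Glul, Rhbg and Gulo over Cyp1a2. The share among ratios of all tested genes was not computed, so this count is a description too. The mean ratio was 2.91-fold higher on Western diet in DKO and 1.56-fold higher in DKO/hA1 livers, on the log scale, and 2.63-fold and 1.22-fold without both libraries highest in neutrophil markers.

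Acute phase transcripts differed between the same libraries. The 18 listed transcripts, among them Saa1, Saa2, Orm2 and Lcn2, summed to 33867, 156979 and 91974 FPKM in DKO Western diet replicates 1 to 3 and to 14508, 17015 and 134961 FPKM in DKO/hA1 Western diet replicates 1 to 3. The chow libraries ranged from 11135 to 21360 FPKM. The 3 highest sums belonged to the 3 libraries with the highest ratios, which also had the lowest or next to lowest Cyp1a2 levels of their group. Whether the acute phase state takes part in the Cyp1a2 level was not tested.

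**Figure D4:**
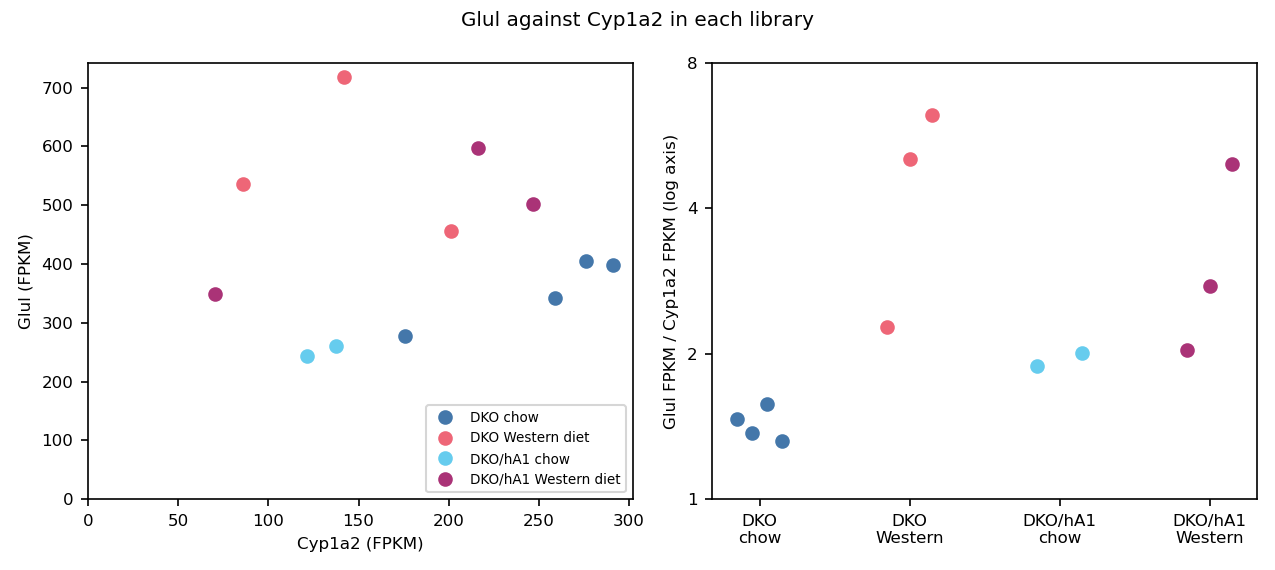
Glul FPKM against Cyp1a2 FPKM in the 12 libraries (left), and the ratio of Glul to Cyp1a2 FPKM by group on a log axis (right), with a point for each library. The ratio lies between 1.32 and 2.00 in the 6 chow libraries and reaches 6.24 in a DKO Western diet library.

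Across the 12 libraries all 45 pairs of members had positive Pearson correlations of log2 level, with a median of 0.61. They ran from 0.13 for Glul with Cyp1a2 to 0.90 for Cyp2e1 with Gulo. After group means were taken out, the median was 0.62, and 44 of the 45 were positive. These values describe 12 libraries that share groups, and the clock index runs through them. The tested genes most like Glul over these libraries were 1810058I24Rik (r = 0.95), Nat6 (0.93), Acot11 (0.92), Clcn7 (0.92) and Slco2b1 (0.91). Most like Cyp2e1 were Fam54b (0.95), Mosc2 (0.94), Pcyt1a (0.94), Ppara (0.93) and Cpt1a (0.93).

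Other genes of the 2 ends of the lobule were read from lists that were chosen with earlier results of these data known. Counts of calls at both ends, beside the shares over all tested genes, are therefore a description. Of 30 other pericentral hepatocyte genes, 1 was called higher and 3 lower on Western diet in the average over genotypes, where 2.75% of all tested genes were called higher and 1.2% lower. Of the 30, 15 were fitted above 0, beside 47.8% of tested genes. Slc13a3, a dicarboxylate transporter, rose by 2.06 ± 0.31 (SE; limma adjusted p = 0.0078), from 7.51 ± 1.56 to 46.4 ± 27.5 FPKM in DKO and from 4.26 ± 0.37 to 19.5 ± 7.18 FPKM in DKO/hA1 livers. Cyp3a11, a major drug-oxidising P450, fell by 4.07 ± 0.79 (adjusted p = 0.0222), from 1333 ± 330 to 69.1 ± 57.9 FPKM in DKO and from 1072 ± 213 to 189.5 ± 139 FPKM in DKO/hA1 livers. The glutathione transferases Gstm3 and Gstm6 fell by 1.71 ± 0.38 and 0.93 ± 0.18 (adjusted p = 0.0351 and 0.0191). The Gstm3 call held in 2 of 12 fits with 1 library left out, and those of Cyp3a11, Gstm6 and Slc13a3 in at least 10. Pericentral genes thus did not move as 1 group on Western diet, with Glul and Slc13a3 up and these 3 detoxification genes down. In the genotype comparison on chow, 24 of the 30 were fitted as lower with human APOA1, beside 50% of tested genes, at a median of -0.47. None was called, and 8 had an unadjusted limma p below 0.05, beside 7.43% of tested genes.

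At the portal end, 6 of 22 tested periportal hepatocyte genes were called lower on Western diet in the same average and none higher, with 18 of 22 fitted below 0 and a median of -0.47, where 1.2% of all tested genes were called lower. They were Hsd17b6, a steroid dehydrogenase, at -1.70 ± 0.24 (SE; limma adjusted p = 0.00714), Cyp2f2, a periportal P450, at -1.25 ± 0.23 (adjusted p = 0.0158), Cdh1, Hal, Gls2 and Pigr. Gls2, the liver glutaminase that releases the ammonia from glutamine, fell by 0.71 ± 0.12 (adjusted p = 0.0105). Its mean went from 147 ± 22.3 to 95.6 ± 16.0 FPKM in DKO and from 199 ± 11.2 to 121.5 ± 14.97 FPKM in DKO/hA1 livers, opposite in direction to Glul in both genotypes. Cyp2f2 went from 573 ± 67.6 to 254 ± 118 FPKM and from 630 ± 60.8 to 298 ± 125 FPKM. Hsd17b6 was also called in DKO livers alone, at -2.06 ± 0.31 (adjusted p = 0.0345). The calls of Hsd17b6, Cyp2f2 and Gls2 held in at least 11 of 12 fits with 1 library left out, that of Hal in 7, Cdh1 in 4 and Pigr in 2.

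**Figure D5:**
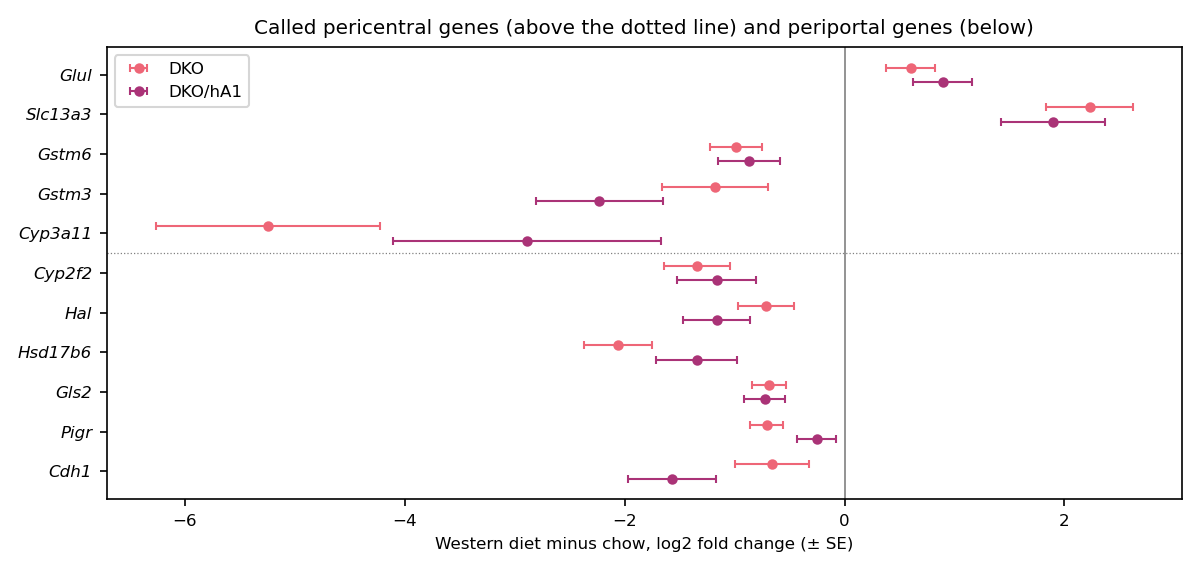
Western diet minus chow, as log2 fold change with its SE on the log2(FPKM + 1) scale, in DKO and in DKO/hA1 livers, for Glul and the 4 other pericentral genes (above the dotted line) and the 6 periportal genes (below it) called in the average over genotypes. Both points lie above 0 for Glul and Slc13a3 and below 0 for the other 9 genes.

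Of 19 tested genes of ammonia, glutamate and proline handling, Gls2 was the 1 called by diet. The Wnt pathway list held 26 tested genes of 35, and none was called in any of the 6 comparisons, where limma gave 1 to 3 of them an unadjusted p below 0.05, beside 4.88% to 19.6% of all tested genes. In DKO livers 24 of the 26 were fitted as lower on Western diet, beside 51.1% of tested genes, at a median of -0.19, and 1 had an unadjusted p below 0.05, beside 11.8%. Its ligands, named here outside the rule for named genes, were low in whole liver. Wnt2 ranged from 0.19 to 2.16 FPKM and Rspo3 from 1.49 to 2.54 FPKM over the 12 libraries, and beta-catenin's own gene Ctnnb1 stayed between 62.7 and 76.2 FPKM. On chow, Wnt2 ran from 1.10 to 2.16 FPKM in DKO and from 0.41 to 0.78 FPKM in DKO/hA1 livers. These did not overlap, as for 9.28% of all tested genes, and differed by -0.74 ± 0.28 (SE; limma adjusted p = 0.571). On Western diet, Wnt2 ran from 0.58 to 1.82 FPKM in DKO and from 0.19 to 1.04 FPKM in DKO/hA1 livers, with overlap. The 6 central vein endothelium markers, which include these ligands, summed to 4.98 to 9.22 FPKM in DKO chow, 4.87 to 8.33 in DKO Western diet, 4.22 to 5.89 in DKO/hA1 chow and 5.65 to 10.3 FPKM in DKO/hA1 Western diet livers. Their part in the members' levels was not tested.

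Around Gulo, 7 of 8 listed ascorbate genes were tested. Ugdh, which makes the UDP-glucuronate from which ascorbate is built, fell on Western diet by 0.84 ± 0.17 in the average over genotypes (SE; limma adjusted p = 0.02) and by 1.37 ± 0.26 in DKO/hA1 livers (adjusted p = 0.0317). Slc23a1, an ascorbate transporter, rose by 0.41 ± 0.10 (adjusted p = 0.0476), a call that held in 2 of 12 fits with 1 library left out. Around Cyp1a2, 4 of 8 genes of the aryl hydrocarbon receptor pathway were tested and none was called in any comparison. An unadjusted limma p below 0.05 was found for 0 of the 4 in the diet comparison of either genotype. In the average over genotypes it was found for 1 of the 4, beside 19.6% of tested genes.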

How the data were processed

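Liver RNA-seq of 12 samples was deposited as 1 table of FPKM values per gene, which the authors made with TopHat 1.3.2, Bowtie 0.12.8, SAMtools 0.1.19 and Cuffdiff against mm10, per the submitters' processing notes. The gene annotation and fragment counts are not given in the sources used here, so depth is unknown, and FPKM totals ran from 379689 to 578927 per library. Groups came from sample titles. Labels do not say that samples are separate animals, so p-values measure the spread between these samples.

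Libraries were scaled by a trimmed mean of log ratios (30% of ratios trimmed), 783 small RNA genes were left out, as were 22 genes at 0 in a whole group but not in others, and log2(FPKM + 1) was fitted with limma 3.58.1 (R 4.3.3) over all 4 groups, with Benjamini-Hochberg adjustment over 11546 genes and a threshold of 0.05. The fit was checked on simulated data. Single members were also tested by exact permutation of diet within genotype.

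The members and gene lists were chosen with earlier results of these data known. Named genes were all members, the 5 genes most correlated with Glul and with Cyp2e1, and called genes of the lists, at most 6 per list and comparison. The 22 alternative settings (23 for comparisons of 2 groups) changed the added value, filter, scaling, variance model, block, clock covariate or libraries.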

Additional observations from a re-analysis of the deposited data

How the results depend on the processing

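The number of the 10 members fitted above 0 ran from 1 to 7 over the alternatives for diet without human APOA1, 6 to 10 for diet with it, 0 to 1 for genotype on chow, 2 to 9 for genotype on Western diet, 8 to 10 for the interaction and 4 to 9 for the average. Of the members' group differences printed with an error, that of Cyp1a2 alone changed sign. Cyp1a2 for diet with human APOA1 turned to -0.33 with the clock index and to -0.064 without DKO/hA1 Western diet replicate 1; single libraries left out gave -0.064 to 0.82. Counts of called genes moved more. Diet without human APOA1 called 13, and 31 without both libraries highest in neutrophil markers (added after seeing the data, as are the values for that pair below). Diet with human APOA1 called 152, but 69 with equal totals, 51 with the clock index, 54 without that pair and 13 in a fit of its own 2 groups. Genotype on chow called 9, but 3 with 0.1 added, 27 without the filter, 5 with the clock index, 42 without the pair and 37 in a fit of its own 2 groups. The interaction called 2, but 8 without the filter, 1 with equal totals and 1 with the clock index. The average diet effect called 456, and 243 without the pair. Its called members numbered 1 (Glul), 0 without the filter (adjusted p = 0.065), with equal totals (0.112) and with the clock index (0.122), and 2 without the pair. Leaving out 1 library gave 8 to 72 calls for diet without human APOA1, 6 to 190 with it, 2 to 33 for genotype on chow, 0 for genotype on Western diet, 1 to 8 for the interaction and 34 to 535 for the average, and 0 to 1 called member for diet with human APOA1 and 0 to 2 for the average. Causes were not tested. Of 15 pairs of libraries with the same replicate number, 4 correlated above 0.1 after group means were taken out (r from -0.28 to 0.45). The 2 DKO/hA1 chow libraries then mirror each other, so these values cannot tell whether replicate numbers pair samples. With the replicate number as a block, calls numbered 85 for diet with human APOA1, 1 for the interaction and 298 for the average, and Glul came to 0.81 (adjusted p = 0.0391). Depth could not be read from FPKM, which limits Axin2 and Lgr5 most.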

Other observations

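Wif1, a secreted Wnt inhibitor on the pathway list that did not pass the filter, was listed at 0.77 to 1.86 FPKM in the 3 DKO Western diet libraries. It was at 0 to 0.21 FPKM in DKO chow, at 0 in both DKO/hA1 chow libraries and at 0.08 to 0.15 FPKM in DKO/hA1 Western diet livers. It was named after its values were seen, its levels are low, and no test was made.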
